A study of Mus musculus with 11 samples.

Results

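A set of 58 genes peaked at postnatal day 14 (P14) in RNA pulled down with the ribosomes of mouse forebrain excitatory neurons, being lower both 1 week earlier and 1 week later. They were chosen from these same values. The mean P14 level had to be at least 5 TPM (a level corrected for transcript length and scaled to a fixed total in each library). The mean also had to be at least 1.4 times the mean at P7 and the mean at P21, and the lowest P14 library had to lie above every P7 and every P21 library. Of 77179 gene IDs in the table, 10415 reached 5 TPM at P14 outside the mitochondrially encoded genes, and 58 of these, 0.557%, met the rule. The mirror rule, a dip at P14 of the same size, was met by 11 genes. Its 5 TPM limit was set on the lower of the P7 and P21 means, not on P14. Their number equals 0.106% of 10415, though a dipping gene can lie under 5 TPM at P14 and so outside the 10415. Both counts depend on scaling. After median-of-ratios scaling 34 genes met the peak rule and 21 the mirror rule, and after quantile normalisation 37 and 14. Since the P14 values chose the genes, their height at P14 is given below as a description, with no test.

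The samples came from NEX-RiboTag mice, where Cre driven by Neurod6 (also called NEX) turns on an eGFP-Rpl10a fusion that is silent without it, so that ribosomes of forebrain excitatory neurons carry GFP. Cortex and hippocampus were processed together, beads against GFP pulled the ribosomes down, and polyadenylated RNA was sequenced (TRAP). The pull-down (IP) libraries, 3 each at P7, P14 and P21, all have the genotype NEX-Cre;Rpl10aeGFP/eGFP. The reference for the pull-down is 2 libraries of whole-tissue RNA (input) at P7, the first of genotype NEX-Cre;Rpl10aeGFP/eGFP and the second Rpl10aeGFP/eGFP without Cre. Every group shares the Rpl10a reporter allele on both chromosomes, and the C57BL/6J background is stated for the NEX-Cre line. Input at P14 and P21 was not analysed here, so the peak could not be set against whole tissue at those ages. The labels call the pull-down libraries of an age biological replicates but do not say whether animals were pooled, and the sex is not given. In bulk RNA a lower level can mean fewer cells of a type or less RNA per cell, and these cannot be told apart.

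Markers of the labelled cells were not uniformly higher in the pull-down, and RNA of other cells was present. Rpl10a averaged 3638 TPM in P7 IP and 742 TPM in P7 input (adjusted p = 1.72e-05 in limma). Its input libraries, which differ in Cre genotype, ranged from 487 to 996 TPM. Reads of the eGFP-Rpl10a fusion were not told apart from those of the native gene. Neurod6 averaged 152 TPM in P7 IP and 112 TPM in P7 input (adjusted p = 0.0118). Slc17a7, the vesicular glutamate transporter of cortical excitatory neurons, averaged 628 TPM in IP and 537 TPM in input and did not pass (adjusted p = 0.124). Of 27 excitatory neuron markers, 7 were higher in P7 IP than in P7 input and 12 lower, beside 18.6% and 51.1% of all genes tested. Summed over 20 myelinating oligodendrocyte markers, the IP libraries held 39.3 to 45.0 TPM at P7, 324 to 432 TPM at P14 and 565 to 810 TPM at P21, and the input libraries 263 and 332 TPM at P7. The sum of 22 astrocyte markers was 332 to 422, 637 to 745 and 773 to 988 TPM at the 3 ages in IP, beside 4251 and 4698 TPM in input. Both sums were higher at P21 than at P7, and their part in any single gene's level was not tested. The depth of the libraries is unknown from TPM, and 15154 to 15658 genes reached 1 TPM in the IP libraries, beside 17784 and 17793 in input.

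The second postnatal week is a period of rapid synapse formation in rodent cortex and hippocampus, around the time of eye opening, and synapses later mature and are pruned. Neuromodulator receptors, secreted factors, adhesion molecules and chromatin enzymes all take part in this period. Oxytocin and serotonin receptors adjust the excitability of neurons, and Dnmt3a, a de novo DNA methyltransferase, lays down the non-CpG methylation that builds up in postnatal neurons. Ribosome-bound RNA reports which transcripts are engaged by the translation machinery, not how much protein is present.

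Promoter windows (250 bases before to 50 after the annotated start) were taken from RefSeq, build GRCm38.p6, which differs from the mm39 build of the deposited values. They were found by symbol for 33 of the 58 genes, in 48 windows. Both strands were searched for 8 motifs tied to neuronal activity, calcium signalling, neuronal differentiation or the core promoter, and no 2 different motifs overlapped in these windows. The 4 promoters below are shown because they belong to genes described below and each holds one of the calcium- or activity-linked motifs, in capitals. They read in the direction of transcription. The Nfatc2 window shown (chr2:168601608-168601907, minus strand) holds the NFAT core TGGAAA as its reverse complement, and also a TATAAA that is left in lower case. Nfatc2 has another window, which holds none of the motifs searched. The Gpr6 window (chr10:41072241-41072540, minus strand) holds the cyclic AMP response element TGACGTCA. The Htr2c window (chrX:146962263-146962562, plus strand) holds an AP-1 motif, TGANTCA. The Dnmt3a window shown (chr12:3806910-3807209, plus strand) holds the EGR motif GCGNGGGCG. Dnmt3a has other windows, which hold none of the motifs searched.
Nfatc2 promoter: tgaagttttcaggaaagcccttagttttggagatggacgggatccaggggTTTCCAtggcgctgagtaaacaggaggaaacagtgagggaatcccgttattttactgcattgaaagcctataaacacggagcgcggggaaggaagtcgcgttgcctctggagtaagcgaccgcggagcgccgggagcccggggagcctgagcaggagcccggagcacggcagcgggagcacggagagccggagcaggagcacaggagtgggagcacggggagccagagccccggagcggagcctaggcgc
Gpr6 promoter: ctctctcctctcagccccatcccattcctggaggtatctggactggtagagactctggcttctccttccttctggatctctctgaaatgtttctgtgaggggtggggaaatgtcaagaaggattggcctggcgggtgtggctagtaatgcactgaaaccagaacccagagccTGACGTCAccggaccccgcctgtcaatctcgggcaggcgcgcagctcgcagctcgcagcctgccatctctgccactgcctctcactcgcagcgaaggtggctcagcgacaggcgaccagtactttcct
Htr2c promoter: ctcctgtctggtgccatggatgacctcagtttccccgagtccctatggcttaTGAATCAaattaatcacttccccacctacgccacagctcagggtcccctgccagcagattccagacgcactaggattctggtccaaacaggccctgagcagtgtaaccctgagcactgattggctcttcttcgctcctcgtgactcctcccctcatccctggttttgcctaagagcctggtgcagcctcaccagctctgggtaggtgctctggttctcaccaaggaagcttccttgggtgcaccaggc
Dnmt3a promoter: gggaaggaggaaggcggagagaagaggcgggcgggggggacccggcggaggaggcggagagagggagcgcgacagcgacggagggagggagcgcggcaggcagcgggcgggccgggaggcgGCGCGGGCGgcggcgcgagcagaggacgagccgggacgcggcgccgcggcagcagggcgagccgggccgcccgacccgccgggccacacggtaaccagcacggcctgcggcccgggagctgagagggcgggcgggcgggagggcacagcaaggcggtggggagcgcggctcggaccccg

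The motif shares lay on both sides of those of expressed genes. Of 33 genes with a window, 8 (24.2%) held TGGAAA, 4 (12.1%) TGANTCA, 1 (3.03%) TGACGTCA and 1 (3.03%) GCGNGGGCG. Among 7826 genes of at least 5 TPM at P14 with a window, the shares were 19.1% for TGGAAA, 5.42% for TGANTCA, 4% for TGACGTCA and 13.4% for GCGNGGGCG. The NeuroD E-box CAGATG stood in 15.2% of the 33 genes and 13.2% of expressed genes, TATAAA in 9.09% and 8.06%, and the MEF2 motif in 6.06% and 2.02%. The CArG box stood in none of the 33 and in 1.60% of expressed genes. The median window held 16 CpG and 59.0% GC for the peaking genes, beside 21 CpG and 61.3% GC for expressed genes. These are letter matches in a short window, described without a test.

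Most of the peaks were of modest size and low to middling level. The mean P14 level ran from 5.45 to 1048 TPM with a median of 12.3 TPM, and the median over the 10415 genes was 25.1 TPM. Only 3 genes reached 100 TPM at P14, and 22 stayed under 10 TPM. The ratio of the P14 mean to the higher of the other 2 means ran from 1.4 to 2.72 over the 57 genes where it is defined, with a median of 1.53. It was below 1.5 in 25 genes and at least 2 in 8, counting as 2 or more the pseudogene Gm12918, which was listed at 0 at both other ages. The genes just inside the ratio were Efcab2 at 1.4, Zfp189 at 1.41, Ust at 1.41 and Lypd1 at 1.42, and those that missed it by least were Myadm at 1.39, Bicd1 at 1.39, Rhbdl3 at 1.39 and Gpm6a at 1.39.

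**Figure D1:**
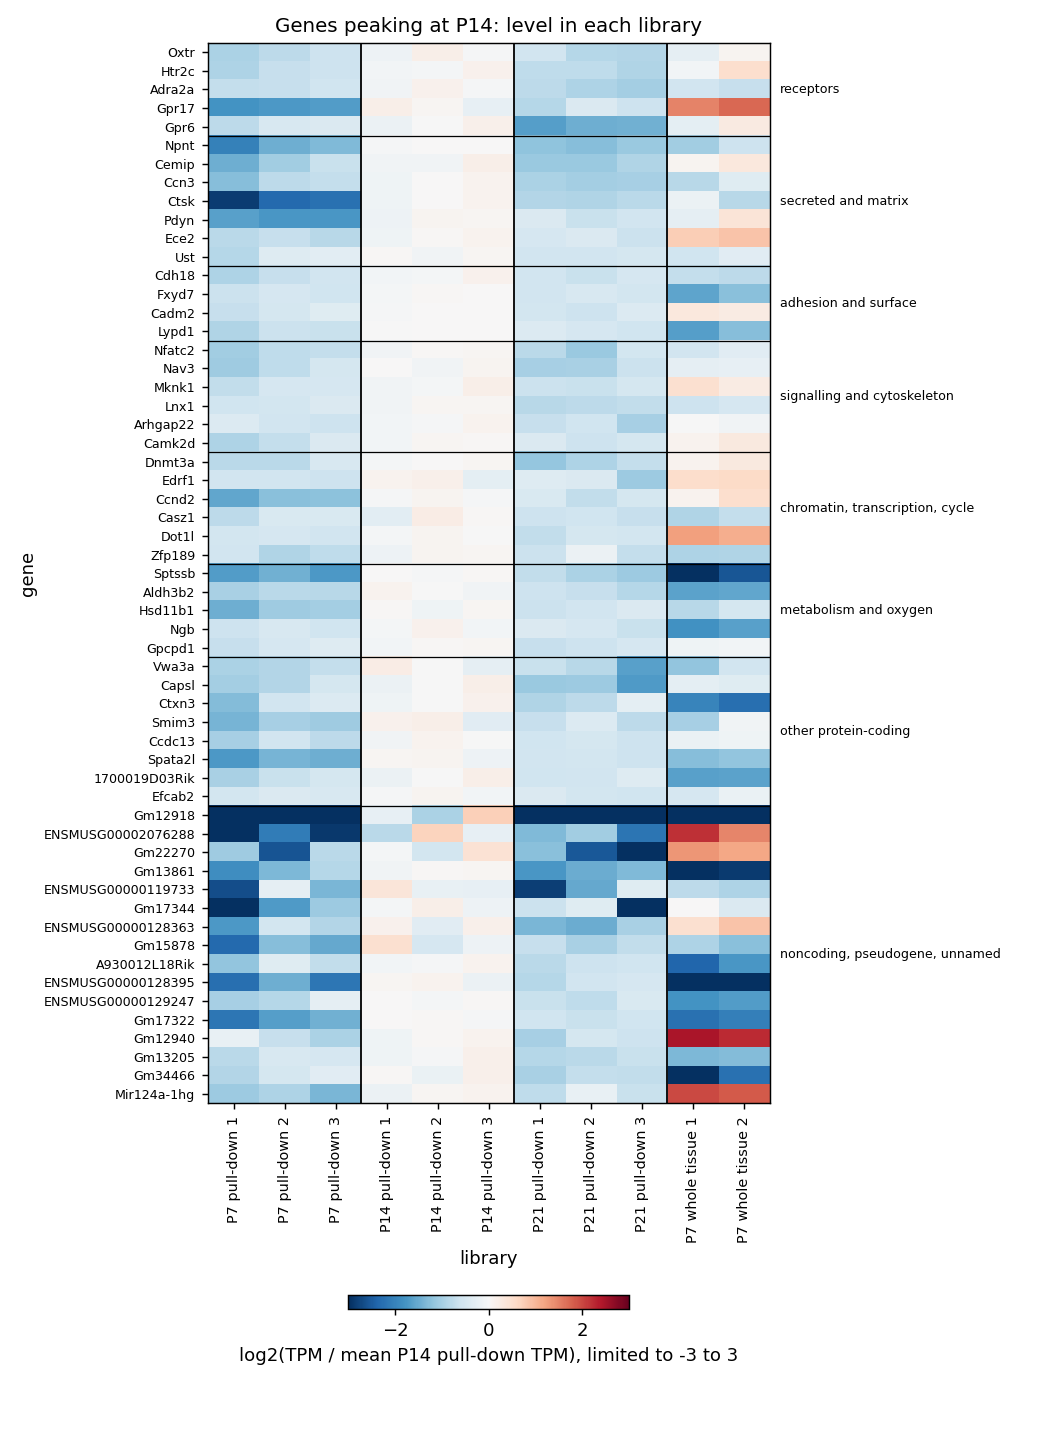
Level of 57 of the 58 genes (rows, grouped by role) in each library (columns), as the log2 ratio of its TPM to its mean P14 pull-down TPM, limited to -3 to 3 (red above, blue below). The 3 P14 columns are the palest block in nearly every row, and the P7 and P21 columns are blue. The whole-tissue columns run from deep blue (Gm12918 and ENSMUSG00000128395) to deep red (Gm12940).

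**Figure D2:**
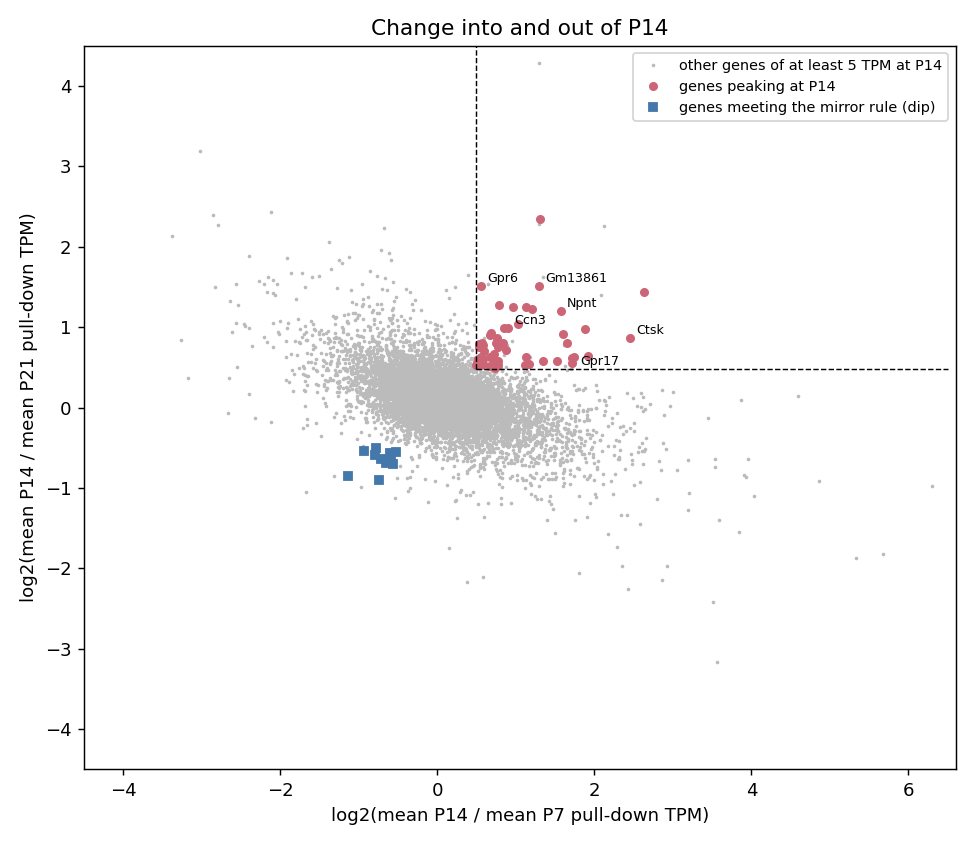
Each point is a gene, placed by log2 of mean P14 over mean P7 (x axis) and log2 of mean P14 over mean P21 (y axis) of the pull-down. Genes had at least 5 TPM at P14, except that those of the mirror rule needed 5 TPM at P7 and P21 instead. Dashed lines mark the ratio of 1.4. The 57 peaking genes with a defined ratio lie in the upper right corner, with ENSMUSG00002076288 (6.22) and Ctsk (5.47) furthest right and Gm22270 (5.07) highest by their ratios, and the 11 genes of the mirror rule lie to the lower left.

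The set held 5 membrane receptors, and 3 of them bind neuromodulators. Oxtr, the oxytocin receptor, had 2.81, 3.19 and 3.54 TPM at P7, 4.88, 6.15 and 5.32 TPM at P14 and 3.65, 3.03 and 2.97 TPM at P21, so that its P7 and P21 libraries overlapped and the P14 mean was 1.71 times that at P7 and 1.69 times that at P21. Htr2c, the Gq-coupled serotonin 2C receptor, had 4.73, 5.53 and 5.82 TPM at P7, 8.56, 8.67 and 9.78 TPM at P14 and 5.29, 5.34 and 4.81 TPM at P21. Adra2a, the alpha-2A adrenergic receptor that lowers cyclic AMP, had 13.5, 13.8 and 14.7 TPM at P7, 20.6, 24.5 and 21.8 TPM at P14 and 13.1, 11.8 and 11.1 TPM at P21, and its P21 libraries lay below all 3 P7 libraries. Gpr6, an orphan receptor that raises cyclic AMP without a known need for ligand, had 3.49, 4.26 and 4.43 TPM at P7, 5.32, 5.92 and 6.66 TPM at P14 and 1.91, 2.15 and 2.19 TPM at P21. Gpr6 showed the widest drop after P14 of the 5 receptors, with a P14 mean 2.87 times that at P21, but only 1.47 times that at P7. The fifth receptor, Gpr17, marks differentiating oligodendrocytes and had 2.6, 2.73 and 2.82 TPM at P7, 10.1, 9.33 and 7.61 TPM at P14 and 4.96, 6.72 and 5.87 TPM at P21. Its P21 libraries stayed above all its P7 libraries.

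Other receptors of the same families, listed after the peaking genes were known, mostly rose to P14 without a later fall, or fell. Of the 10 other serotonin receptors tested, none rose to P14 and then fell in limma at adjusted p below 0.05 (1 did at unadjusted p below 0.05, beside 5.34% of all genes). Htr1a, with means of 4.21, 7.45 and 6.47 TPM at P7, P14 and P21, rose to P14 (log2 change 0.71, SE 0.12, adjusted p = 0.000712) and did not pass the test from P14 to P21 (adjusted p = 0.312). Htr2a, a Gq-coupled relative of Htr2c, had 2.83, 5.48 and 5.47 TPM and rose to P14 (log2 change 0.76, SE 0.12, adjusted p = 0.000415), while its change from P14 to P21, whose sign depended on the scaling, did not pass (adjusted p = 0.993). Htr7 fell to P14, with 14.6, 9.89 and 8.2 TPM (log2 change -0.52, SE 0.09, adjusted p = 0.000579). All 5 other adrenergic receptors tested rose to P14, as did 26.7% of all genes. Adra1d had 3.12, 18.5 and 25.9 TPM (log2 change 2.26, SE 0.16, adjusted p = 1.98e-06), and Adra2c, the other alpha-2 receptor tested, had 7.56, 11.3 and 16.3 TPM and rose again to P21 (log2 change 0.49, SE 0.11, adjusted p = 0.0093). Beside Oxtr, the vasopressin receptor Avpr1a ran the other way, with 7.41, 0.558 and 0.164 TPM, and fell both to P14 (log2 change -2.44, SE 0.11, adjusted p = 2.26e-07) and to P21 (log2 change -0.42, SE 0.11, adjusted p = 0.0195).

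Gpr17, and the summed markers of its cell type, stood higher in P7 whole tissue than in the P7 pull-down. In P7 input it had 25.1 and 29.6 TPM, far above its P7 IP libraries (log2 difference -2.93, SE 0.13, adjusted p = 4.77e-08). The 10 differentiating oligodendrocyte markers, Gpr17 among them, summed to 41.2 to 51.1 TPM at P7, 68.3 to 73.9 TPM at P14 and 42.5 to 51.1 TPM at P21 in IP, and to 117 and 127 TPM in P7 input. Tmem163, which alone made up more than the rest of that list in IP, had 35.9, 44.5 and 26.9 TPM in IP and rose to P14 (log2 change 0.31, SE 0.08, adjusted p = 0.00991) and fell to P21 (log2 change -0.71, SE 0.08, adjusted p = 0.000253). Bcas1 had 1.97, 7.99 and 6.56 TPM and did not pass from P14 to P21 (adjusted p = 0.259). No marker of this list was at 0 in every library. How far such cells contribute to Gpr17 in the pull-down was not tested.

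A group of 8 genes encode secreted or matrix proteins or enzymes that act on them, and 7 of them are described here, Npnt and Cemip with P14 means over 2 times those at both other ages. Npnt, nephronectin, a matrix ligand of integrin alpha-8 beta-1, had 8.36, 12.3 and 13.6 TPM at P7, 33, 34.3 and 34.2 TPM at P14 and 14.6, 13.9 and 15.8 TPM at P21, and its 3 P14 libraries differed by only 2.06% (coefficient of variation). Cemip, which degrades hyaluronan, the long sugar chain of the matrix, had 2.58, 3.44 and 4.52 TPM at P7, 6.63, 6.67 and 8.07 TPM at P14 and 3.27, 3.31 and 3.84 TPM at P21. Ccn3, a matricellular protein, was the most abundant of the 8 with 56, 78 and 82.9 TPM at P7, 123, 136 and 146 TPM at P14 and 69.5, 67 and 67.5 TPM at P21. For Cemip and Ccn3 the P21 and P7 ranges overlapped, so the level at P21 was back among that of P7.

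The remaining 4 secreted or extracellular genes either kept part of the P14 level or peaked only slightly. Ctsk, a cysteine protease best known from bone resorption, had 1.56, 2.2 and 2.35 TPM at P7, 10.1, 11.2 and 12 TPM at P14 and 6.07, 5.95 and 6.35 TPM at P21, a P14 mean 5.47 times that at P7 but 1.82 times that at P21. Pdyn, the precursor of the dynorphin opioid peptides, had 3.85, 3.58 and 3.59 TPM at P7, 10.8, 12.8 and 12.4 TPM at P14 and 8.85, 7.57 and 8.07 TPM at P21, and its P21 libraries also lay above all P7 libraries. Ece2, a metalloprotease that can process neuropeptides, had 6.41, 7.02 and 6.4 TPM at P7, 10.3, 11.5 and 12.1 TPM at P14 and 7.95, 8.43 and 7.19 TPM at P21. Ust, a sulfotransferase that modifies chondroitin and dermatan sulfate chains, had 10.5, 14.6 and 15.3 TPM at P7, 19.5, 17.6 and 19.9 TPM at P14 and 12.7, 12.8 and 13.2 TPM at P21 and stood close to the ratio limit. In 3 of these 4 genes, Ctsk, Pdyn and Ece2, the P21 libraries lay above every P7 library.

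**Figure D3:**
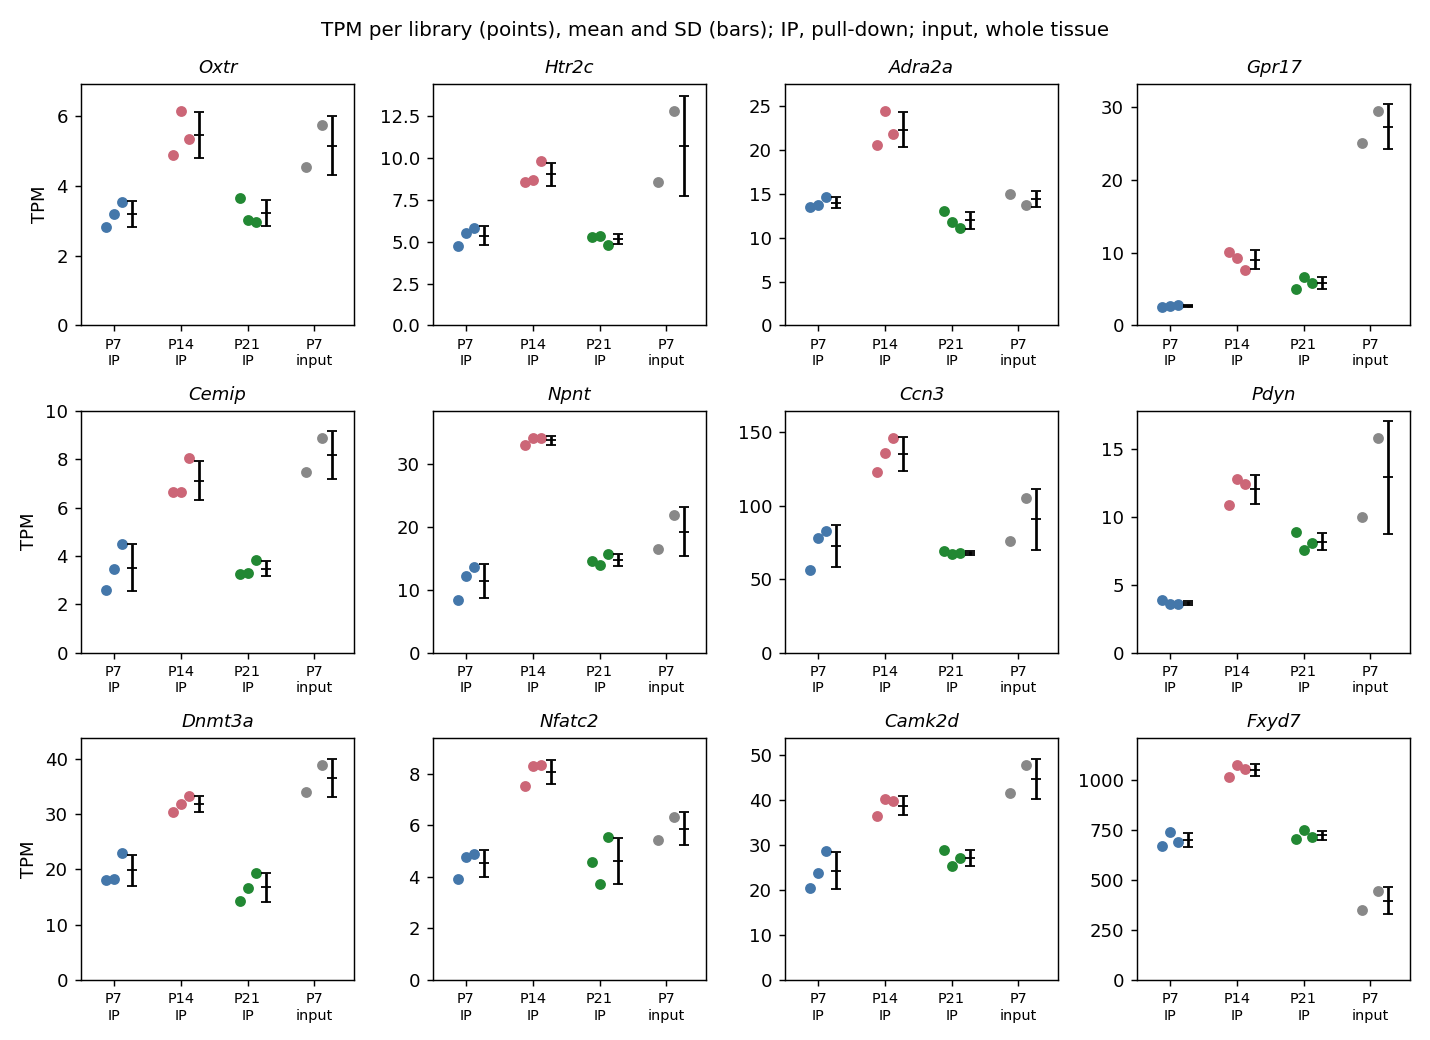
TPM in each library (points) with the mean and SD (bars) for 12 of the peaking genes, at P7, P14 and P21 in the pull-down (IP, 3 libraries each) and at P7 in whole tissue (input, 2 libraries). The P14 points lie above all P7 and P21 pull-down points in each panel, as the rule requires, while input lies far above IP at P7 for Gpr17 and below it for Fxyd7.

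Partners and relatives of these secreted proteins, also listed once the peaking genes were known, took several courses. Penk, the precursor of the enkephalins, had 13.8, 29.7 and 59.6 TPM and rose at both steps (log2 change 1.06, SE 0.11, adjusted p = 2.49e-05 to P14). Of the integrin chains that bind Npnt, Itga8 had 1.16, 1.32 and 1.16 TPM and passed neither test, and Itgb1 had 14.3, 11.8 and 9.38 TPM and fell to P14 (log2 change -0.25, SE 0.1, adjusted p = 0.0479). Hyal2 and Has3, which degrade and make hyaluronan, fell to P14, with 14.8, 7.2 and 5.34 TPM (log2 change -0.94, SE 0.1, adjusted p = 2.84e-05) and 3.52, 1.26 and 0.712 TPM (log2 change -1.0, SE 0.11, adjusted p = 2.93e-05).

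A further 4 genes encode adhesion or other cell-surface proteins, among them the 2 with the most even P14 libraries. Fxyd7, a brain-specific regulator of the sodium pump, was the most abundant of all 58 genes with 671, 737 and 688 TPM at P7, 1014, 1075 and 1055 TPM at P14 and 705, 747 and 713 TPM at P21. Lypd1, a Ly6-family protein that binds nicotinic acetylcholine receptors, had 176, 208 and 206 TPM at P7, 323, 330.4 and 328 TPM at P14 and 245, 229.7 and 217 TPM at P21, with a P14 coefficient of variation of 1.1%, the smallest of the 58. Cadm2, a SynCAM adhesion protein of synapses and axons, had 20.6, 23.2 and 26 TPM at P7, 32.8, 33.7 and 33.5 TPM at P14 and 22.7, 21.5 and 25.1 TPM at P21, with a coefficient of 1.49%. Cdh18, a type II cadherin, had 6.9, 8.15 and 8.89 TPM at P7, 12.5, 12.7 and 14.3 TPM at P14 and 8.84, 8.33 and 9.28 TPM at P21. The median coefficient over the 58 genes was 8.69%, and 5.27% over all genes of at least 5 TPM at P14.

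Relatives of these surface genes, listed in the same way, ran in both directions. Fxyd6 had 635, 299.9 and 176 TPM and fell at both steps (log2 change -1.08, SE 0.06, adjusted p = 7.13e-07 to P14). Fxyd1 had 38.7, 105 and 109.6 TPM and rose to P14 (log2 change 1.42, SE 0.11, adjusted p = 2.73e-06). Lynx1, another Ly6 protein that dampens nicotinic receptors, had 63.8, 288 and 338 TPM and rose to P14 (log2 change 2.17, SE 0.14, adjusted p = 9.38e-07). Lypd6 had 27.6, 12.7 and 8.08 TPM and fell at both steps (log2 change -1.08, SE 0.17, adjusted p = 0.00038 to P14). Cadm1 had 63.1, 48.3 and 39.9 TPM and fell to P14 (log2 change -0.37, SE 0.09, adjusted p = 0.0054), as did Cadm4 with 432, 379.7 and 382 TPM (log2 change -0.19, SE 0.05, adjusted p = 0.0138). Among the 10 other type II cadherins tested, Cdh10 had 19.2, 22.6 and 17 TPM and rose (log2 change 0.22, SE 0.07, adjusted p = 0.0222) and then fell (log2 change -0.38, SE 0.07, adjusted p = 0.00267), but its rise was no longer called under median-of-ratios or quantile scaling. Cdh22 rose with 11.5, 31.4 and 37.8 TPM (log2 change 1.37, SE 0.08, adjusted p = 5.47e-07), and Cdh8 had 32.5, 30.6 and 14.6 TPM and fell from P14 to P21 (log2 change -1.02, SE 0.1, adjusted p = 9.53e-05).

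Another 6 genes act in intracellular signalling or the cytoskeleton. Nfatc2, a transcription factor that calcineurin sends to the nucleus when calcium rises, had 3.92, 4.75 and 4.88 TPM at P7, 7.52, 8.3 and 8.35 TPM at P14 and 4.57, 3.73 and 5.53 TPM at P21. Camk2d, the delta subunit of calcium/calmodulin-dependent kinase II, had 20.4, 23.8 and 28.6 TPM at P7, 36.4, 40.2 and 39.7 TPM at P14 and 28.9, 25.3 and 27 TPM at P21. Mknk1, a kinase of the cap-binding translation factor eIF4E, had 12.9, 15.2 and 15.2 TPM at P7, 19.9, 20.4 and 24.1 TPM at P14 and 13.8, 13.6 and 14.8 TPM at P21. Nav3, a microtubule-binding neuron navigator, had 13.2, 16.2 and 19.2 TPM at P7, 27.8, 25.5 and 29.3 TPM at P14 and 13.8, 14.1 and 17.5 TPM at P21. Lnx1, a ubiquitin ligase that targets Numb, had 18.4, 18.9 and 20.5 TPM at P7, 25.9, 28.9 and 28.9 TPM at P14 and 15.7, 16.2 and 16.6 TPM at P21, and its P21 libraries were below all P7 libraries. Arhgap22, a GTPase-activating protein for Rac, had 4.82, 4.31 and 4.13 TPM at P7, 6.07, 6.26 and 6.82 TPM at P14 and 3.96, 4.23 and 3.21 TPM at P21. For Nfatc2, Camk2d, Mknk1, Nav3 and Arhgap22 the P21 and P7 ranges overlapped.

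Partners of these signalling genes, listed in the same way, included genes that rose and genes that fell. Camk2a, the main kinase II subunit of mature excitatory neurons, had 183, 619.9 and 835 TPM and rose at both steps (log2 change 1.77, SE 0.12, adjusted p = 1.56e-06 to P14), and Camk2g had 75.5, 108 and 114 TPM and rose to P14 (log2 change 0.51, SE 0.08, adjusted p = 0.000317). Camk2b, with 337, 392 and 346 TPM, rose (log2 change 0.21, SE 0.04, adjusted p = 0.00156) and then fell (log2 change -0.18, SE 0.04, adjusted p = 0.00957), and the fall was not called under median-of-ratios scaling. Nfatc4 had 5.25, 0.791 and 0.385 TPM and fell to P14 (log2 change -1.83, SE 0.21, adjusted p = 4.00e-05). The calcineurin catalytic subunit Ppp3ca had 257, 509 and 594 TPM and rose to P14 (log2 change 0.98, SE 0.07, adjusted p = 1.40e-06), whereas Ppp3cb had 399, 431 and 295 TPM and fell from P14 to P21 (log2 change -0.55, SE 0.08, adjusted p = 0.000627). Mknk2, the other eIF4E kinase, fell at both steps with 33.9, 24.1 and 18.2 TPM (log2 change -0.47, SE 0.06, adjusted p = 0.000109 to P14). Nav1 and Nav2 also fell to P14, with 23.3, 18.8 and 8.12 TPM (log2 change -0.29, SE 0.11, adjusted p = 0.0477) and 8.18, 5.7 and 4.26 TPM (log2 change -0.45, SE 0.11, adjusted p = 0.00647).

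In chromatin, transcription and the cell cycle there were 6 genes. Dnmt3a had 18.1, 18.3 and 23 TPM at P7, 30.4, 31.8 and 33.2 TPM at P14 and 14.2, 16.7 and 19.3 TPM at P21, so its P14 mean was 1.61 times that at P7 and 1.9 times that at P21. Dot1l, a methyltransferase of histone H3 on transcribed genes, had 10.1, 10.4 and 9.81 TPM at P7, 14.1, 15.5 and 14.5 TPM at P14 and 8.77, 10.3 and 10.1 TPM at P21. Casz1, a zinc-finger transcription factor, had 6.99, 8.8 and 8.84 TPM at P7, 9.61, 14.1 and 12.4 TPM at P14 and 7.86, 7.97 and 7.43 TPM at P21, with the first P14 library well below the other two. Zfp189, a zinc-finger repressor, had 4.21, 3.36 and 3.72 TPM at P7, 5.6, 6.63 and 6.58 TPM at P14 and 4.04, 5.56 and 3.79 TPM at P21. Edrf1, named for erythroid differentiation, had 7.79, 7.82 and 7.61 TPM at P7, 12.5, 12.9 and 9.43 TPM at P14 and 8.9, 8.64 and 5.49 TPM at P21, and here the third library was the lowest at both P14 and P21. Ccnd2, cyclin D2, which drives entry into S phase in dividing cells, had 9.9, 12.1 and 12.4 TPM at P7, 28.2, 30.7 and 28.4 TPM at P14 and 21.1, 17.3 and 20.2 TPM at P21, and its P21 libraries all lay above its P7 libraries.

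Other genes of DNA methylation and of the cyclin D pathway, listed in the same way, rose or fell at single steps or kept one direction. Dnmt1, the maintenance methyltransferase, had 13.7, 9.49 and 9.1 TPM and fell to P14 (log2 change -0.49, SE 0.07, adjusted p = 0.000315). Tet1 and Tet3, which oxidise methylcytosine, had 3.09, 3.18 and 1.49 TPM and 9.02, 10.3 and 7.05 TPM, and both fell from P14 to P21 (log2 change -0.76, SE 0.12, adjusted p = 0.00112 for Tet1, log2 change -0.49, SE 0.11, adjusted p = 0.00715 for Tet3). Ccnd1 had 3.53, 6.16 and 10.6 TPM and rose at both steps (log2 change 0.65, SE 0.12, adjusted p = 0.00138 to P14). Cdk4 had 163, 94.2 and 88.3 TPM and fell to P14 (log2 change -0.78, SE 0.09, adjusted p = 3.18e-05), and Cdk6 fell at both steps with 3.52, 1.07 and 0.38 TPM (log2 change -1.13, SE 0.1, adjusted p = 7.24e-06 to P14). The 16 proliferation genes summed to 61.8 to 65.5 TPM at P7, 45.8 to 50.6 TPM at P14 and 41.3 to 42.2 TPM at P21 in IP, and to 156 and 158 TPM in P7 input. Of the 14 tested, none rose and 6 fell to P14, beside 26.7% and 22.8% of all genes.

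The 5 genes of the next group act in metabolism or oxygen binding. Sptssb, a small subunit that tunes serine palmitoyltransferase, the first enzyme of sphingolipid synthesis, had 3.73, 4.37 and 3.59 TPM at P7, 11.8, 11.6 and 12 TPM at P14 and 7.13, 6.15 and 5.58 TPM at P21. Its paralogue Sptssa ran the other way at a higher level, with 305, 104 and 61.5 TPM, and fell at both steps (log2 change -1.55, SE 0.06, adjusted p = 1.84e-07 to P14, log2 change -0.74, SE 0.06, adjusted p = 4.24e-05 to P21). Hsd11b1, which regenerates active glucocorticoid, had 5.63, 7.42 and 7.66 TPM at P7, 16, 14.3 and 16.2 TPM at P14 and 9.99, 10.4 and 11.4 TPM at P21. The glucocorticoid receptor Nr3c1 had 6.09, 15.3 and 15.2 TPM and rose to P14 (log2 change 1.21, SE 0.13, adjusted p = 2.34e-05) without passing the test to P21 (adjusted p = 0.963). Ngb, neuroglobin, had 15, 16.7 and 15.3 TPM at P7, 22.2, 25.4 and 21.7 TPM at P14 and 17.2, 16.2 and 14.4 TPM at P21. Its relative Cygb had 18.6, 26.5 and 28.6 TPM and rose to P14 (log2 change 0.49, SE 0.07, adjusted p = 0.00012). Aldh3b2, an aldehyde dehydrogenase, had 4.15, 4.61 and 4.54 TPM at P7, 8.76, 8 and 7.58 TPM at P14 and 5.29, 5.04 and 4.5 TPM at P21. Gpcpd1, a glycerophosphocholine phosphodiesterase, was one of the more abundant peaking genes, with 37.9, 43.4 and 47.3 TPM at P7, 58, 62.5 and 63.9 TPM at P14 and 38, 39.7 and 43.4 TPM at P21.

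The 8 remaining protein-coding genes are less well known in neurons. Spata2l was the most abundant with 26.8, 33.6 and 32.2 TPM at P7, 92.5, 93.6 and 79.2 TPM at P14 and 59.6, 60.0 and 57.7 TPM at P21, and its P21 libraries lay clearly above its P7 libraries. Capsl had 3.84, 4.22 and 5.42 TPM at P7, 6.84, 7.69 and 8.79 TPM at P14 and 3.58, 3.63 and 2.39 TPM at P21. Vwa3a had 3.46, 3.6 and 4.05 TPM at P7, 7.74, 6.64 and 5.56 TPM at P14 and 4.2, 3.73 and 2.14 TPM at P21. Ccdc13, a centriolar satellite protein, had 3.32, 4.4 and 3.83 TPM at P7, 6.15, 7.15 and 6.49 TPM at P14 and 4.37, 4.54 and 4.29 TPM at P21. Efcab2, with calcium-binding EF hands, had 6.52, 7.09 and 6.87 TPM at P7, 9.4, 10.2 and 9.1 TPM at P14 and 7.03, 6.48 and 6.29 TPM at P21. For comparison, 9 choroid plexus and ependymal markers summed to 20.7 to 32.2 TPM at P7, 19.2 to 30.2 TPM at P14 and 30.9 to 53.0 TPM at P21 in IP, beside 526 and 561 TPM in P7 input, most of it Ttr. Ctxn3, a small membrane protein, had 5.08, 8.36 and 9.41 TPM at P7, 11.4, 12.3 and 13.8 TPM at P14 and 6.64, 7.19 and 10.1 TPM at P21. Smim3, another, had 2.58, 3.4 and 3.24 TPM at P7, 7.37, 7.57 and 5.31 TPM at P14 and 4.18, 5.06 and 3.89 TPM at P21. The uncharacterised 1700019D03Rik had 9.63, 11.9 and 13 TPM at P7, 16.7, 18.5 and 21.1 TPM at P14 and 12.4, 12.6 and 14.3 TPM at P21.

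The last 16 entries are 6 long noncoding RNAs, 2 pseudogenes, 1 small nucleolar RNA and 7 IDs with no RefSeq entry of their own. They held the least even P14 libraries. Gm12918, a pseudogene, was listed at 0 in every other library and had 25.1, 15.4 and 48.6 TPM at P14. ENSMUSG00002076288 had 0.936, 1.97 and 1.13 TPM at P7, 4.78, 13.3 and 7 TPM at P14 and 3.33, 4.06 and 1.84 TPM at P21. The small nucleolar RNA Gm22270 had 2.99, 1.05 and 3.62 TPM at P7, 6.09, 4.34 and 8.51 TPM at P14 and 2.66, 1.08 and 0 TPM at P21. The P14 coefficients of variation of these 3 were 57.4%, 52.9% and 33.2%, and with that of Gm15878, 35%, they were the highest of the 58. Small nucleolar RNAs are not polyadenylated as mature molecules, and reads on a pseudogene can belong to its parent gene, so these values are uncertain.

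Several of the noncoding genes were even across replicates. Gm13861 had 2.43, 3.5 and 4.93 TPM at P7, 8.28, 9.09 and 9.34 TPM at P14 and 2.67, 3.17 and 3.54 TPM at P21, a P14 mean 2.46 times the higher of the other means. Gm13205 had 44.1, 55.4 and 54.8 TPM at P7, 70.9, 75.7 and 85.2 TPM at P14 and 42.7, 43.8 and 49 TPM at P21. A930012L18Rik had 13.7, 24.2 and 18.5 TPM at P7, 29, 30.3 and 33.3 TPM at P14 and 17.8, 20.1 and 20.4 TPM at P21. Gm34466 had 26.5, 34.1 and 38.9 TPM at P7, 50.4, 42.5 and 54.1 TPM at P14 and 24.8, 29.8 and 29.4 TPM at P21. Gm13205 neighbours Casz1, and the labels do not say whether counting used strand, so reads of this pair cannot be told apart with certainty. Mir124a-1hg, a host gene of the neuronal microRNA miR-124, had 7.61, 8.61 and 6.36 TPM at P7, 14.4, 17.1 and 17.4 TPM at P14 and 9.63, 14.1 and 10.3 TPM at P21. RefSeq gives Gm12940 as a synonym of Sfpq, whose own ID had 97.2, 82.4 and 75.6 TPM, and Gm12940 itself had 23.4, 17 and 14.3 TPM at P7, 25.1, 28 and 29.3 TPM at P14 and 13.7, 18.9 and 17.8 TPM at P21. The lncRNA Gm17344 had 0.349, 2.83 and 4.35 TPM at P7, 8.87, 10.5 and 8.32 TPM at P14 and 5.95, 7.21 and 0.882 TPM at P21, so 1 P21 library lay among its P7 values. The pseudogene Gm17322 had 5.69, 8.14 and 9.43 TPM at P7, 25.7, 26 and 24.7 TPM at P14 and 16.9, 16.1 and 16.8 TPM at P21. Gm15878 had 2.35, 4.86 and 4.07 TPM at P7, 16.3, 8.33 and 10.6 TPM at P14 and 7.25, 5.98 and 7.08 TPM at P21. The unnamed ENSMUSG00000128395 had 6.27, 10.9 and 6.73 TPM at P7, 31.3, 32.3 and 26.8 TPM at P14 and 16.7, 20.2 and 21.2 TPM at P21. The other unnamed IDs, ENSMUSG00000119733, ENSMUSG00000128363 and ENSMUSG00000129247, had P14 values of 8.12, 5.42 and 5.32 TPM, of 7.02, 5.11 and 7.13 TPM and of 6.72, 6.49 and 6.92 TPM.

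The range of levels after the peak most often overlapped that before it. The 3 P21 libraries lay above the 3 P7 libraries in 15 of 58 genes (25.9%), below them in 4 (6.90%) and overlapped them in 39 (67.2%). Over the 10415 genes of at least 5 TPM at P14 the shares were 34.4% above, 39.4% below and 26.2% overlapping. Both ages entered the rule, which requires a height at P14 over each, so these shares are a description. The ratio of the P21 to the P7 mean had a median of 1.02 in the peaking genes and 0.967 over all. Overlap did not always mean a like level: overlapping genes included ENSMUSG00002076288 with a ratio of 2.29, Gm17344 with 1.86 and Gm22270 with 0.488. The 15 genes that kept a higher level were Npnt, Sptssb, Ctsk, Gpr17, Smim3, Spata2l, Ccnd2, Pdyn, Hsd11b1, Mir124a-1hg, Ece2, Lypd1, Gm15878, Gm17322 and ENSMUSG00000128395. Among these 15 the ratio was largest for Ctsk at 3.01, followed by ENSMUSG00000128395 at 2.43 and Pdyn at 2.22. The 4 that ended lower than they began were Capsl at 0.711, Adra2a at 0.856, Gpr6 at 0.513 and Lnx1 at 0.839.

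Set against whole tissue at P7, the peaking genes were a mixed group, called higher or lower at shares close to those of all genes. The P7 IP libraries were also used by the rule, the input libraries were not. All 58 genes passed the filter for testing. In limma, 13 were higher in IP than in input, beside 18.6% of all 19008 genes tested, 30 were lower, beside 51.1%, and 15 passed in neither direction. Read as ranges, 13 lay above input, beside 22.1% of all genes, and 32 below, beside 56.3%. The median log2 difference was -0.40 for the 58 genes and -0.33 for all genes tested. The zero point depends on the scaling. Median-of-ratios and quantile scaling moved the median of all genes to 0.09 and 0.04, and that of the 58 genes to 0.00 and 0.11. The counts became 21 higher and 18 lower, and 22 higher and 18 lower. Shares of all genes called under these scalings were not counted. The 18.6% and 51.1% above hold on the TPM scale only and are no background for these counts.

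Genes higher in IP included the most abundant surface genes. Fxyd7 had 671, 737 and 688 TPM in P7 IP, against 349.9 and 442 TPM in input (log2 difference 0.83, SE 0.09, adjusted p = 1.14e-05), and Lypd1 had 176, 208 and 206 TPM, against 104 and 135 TPM (log2 difference 0.72, SE 0.11, adjusted p = 0.000143). Ngb had 15, 16.7 and 15.3 TPM in IP, against 6.51 and 7.44 TPM in input (log2 difference 1.06, SE 0.1, adjusted p = 4.26e-06), and Ctxn3 and Sptssb were higher by 1.12 and 0.95 on the log2 scale. The largest differences were those of the lncRNA Gm34466 and an unnamed ID. Gm34466 had 26.5, 34.1 and 38.9 TPM in IP, against 4.7 and 10.3 TPM in input (log2 difference 2.07, SE 0.25, adjusted p = 3.02e-05), followed by ENSMUSG00000128395 at 1.41, Gm13861 at 1.24 and A930012L18Rik at 1.2. In each of these genes every IP library lay above both input libraries.

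Genes lower in IP included an oligodendrocyte gene, some of the noncoding RNAs and chromatin genes. Behind ENSMUSG00002076288 at -3.73 came Gpr17, Gm12940 at -2.9 and Mir124a-1hg, which had 7.61, 8.61 and 6.36 TPM in P7 IP, against 64 and 58.5 TPM in input (log2 difference -2.88, SE 0.16, adjusted p = 1.30e-07). Dot1l had 10.1, 10.4 and 9.81 TPM in IP, against 34.6 and 31.2 TPM in input (log2 difference -1.61, SE 0.08, adjusted p = 9.01e-08), Ccnd2 9.9, 12.1 and 12.4 TPM, against 31.5 and 41.4 TPM (log2 difference -1.58, SE 0.13, adjusted p = 1.86e-06), and Pdyn 3.85, 3.58 and 3.59 TPM, against 9.97 and 15.8 TPM (log2 difference -1.54, SE 0.15, adjusted p = 7.64e-06). Dnmt3a and Htr2c were lower, with log2 differences of -0.85 and -0.86, though the call for Htr2c was lost under quantile scaling. Npnt (-0.72) and Oxtr (-0.55) were called lower on the TPM scale and not under median-of-ratios or quantile scaling, and the sign for Oxtr turned under quantile scaling. Adra2a (log2 difference -0.04, SE 0.09, adjusted p = 0.731), Nfatc2 (log2 difference -0.32, SE 0.14, adjusted p = 0.0612) and Ccn3 (log2 difference -0.32, SE 0.17, adjusted p = 0.108) did not pass, and Adra2a was called higher in IP under both other scalings. Without a call, the difference turned positive for Nfatc2 under median-of-ratios (0.0927) and quantile scaling (0.274), and for Ccn3 under median-of-ratios scaling (0.164). On the TPM scale Nfatc2 passed as lower without the second or the third P21 library (adjusted p = 0.0351 and 0.0338), and Ccn3 without the third P7 or the first input library (adjusted p = 0.0477 and 0.0239).

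**Figure D4:**
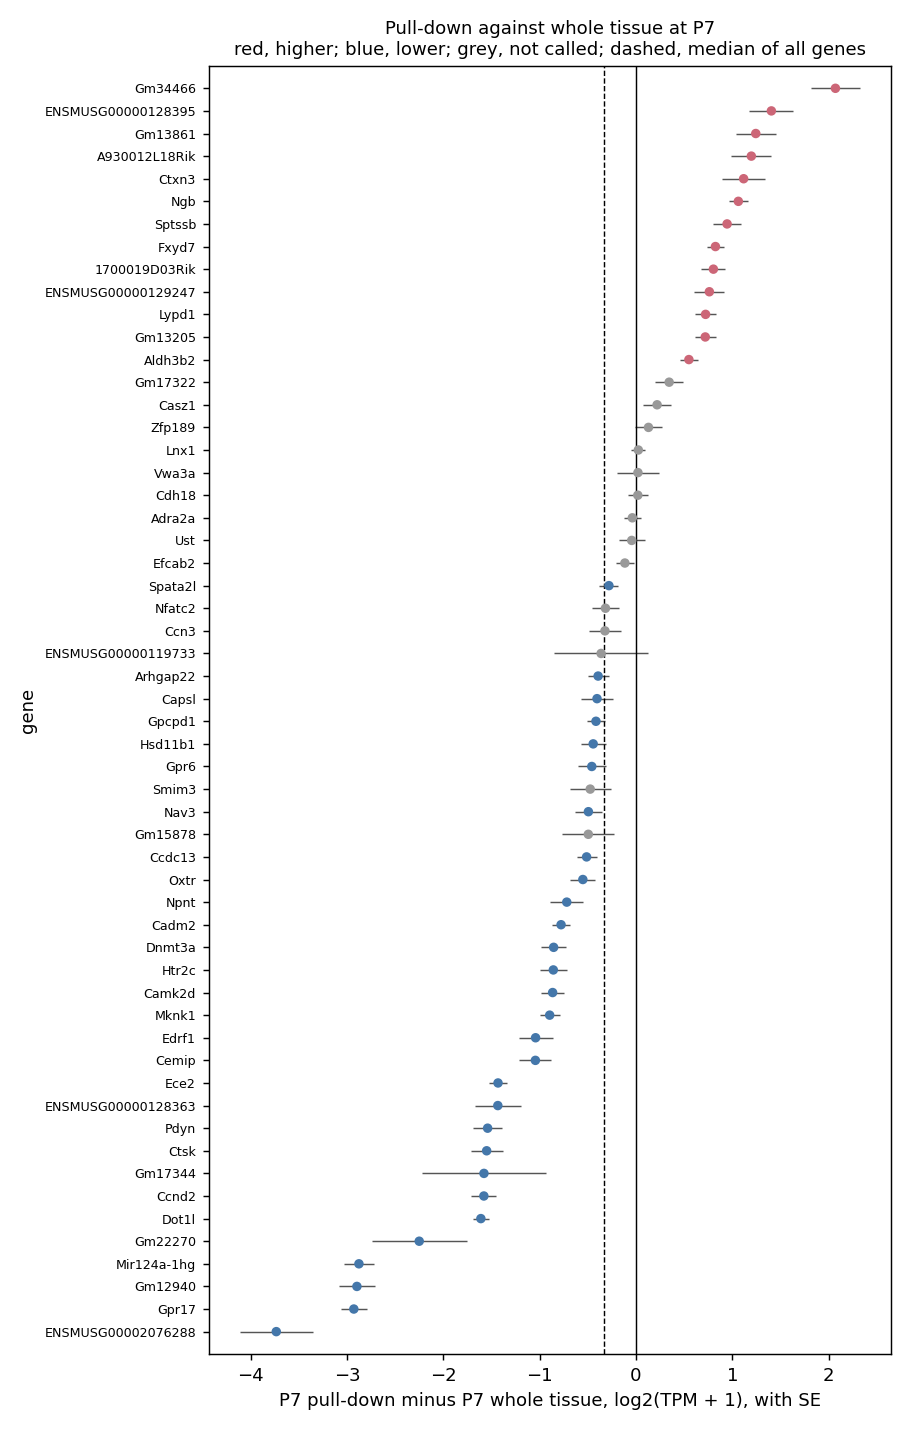
Difference between P7 pull-down (3 libraries) and P7 whole tissue (2 libraries) in log2(TPM + 1) for 56 peaking genes, with the standard error from limma; Gm12918, at 0 in all 5 libraries, is not drawn. The genes run from Gm34466 at 2.07 to ENSMUSG00002076288 at -3.73, and 29 of those drawn are blue, called lower.

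The rise-and-fall course was tested across all genes to show which pathways hold it, with the 58 included in the counts. In limma, 605 of 19008 genes (3.18%) rose from P7 to P14 and fell from P14 to P21, each at adjusted p below 0.05, and 107 (0.563%) fell and then rose. The count depended on scaling and on single libraries: it was 248 under median-of-ratios scaling and 343 under quantile scaling, and 344, 387 and 402 without the second P14, the third P14 or the second P21 library. Single steps were called more often: 26.7% of genes rose and 22.8% fell from P7 to P14, and 8.53% rose and 19.7% fell from P14 to P21. Both steps share the P14 libraries. Of the 58 genes, 52 were called by this fit, which follows from how they were chosen. Just 4 of the 58, Gpr17, Pdyn and Cadm2 among them, stand in any of 30 pathway and cell type lists. Outside the 58, differentiating oligodendrocyte markers held 1 gene that rose and fell instead of 2. Synaptic adhesion genes held 4 instead of 5, and neuropeptide genes 0 instead of 1.

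Synaptic and channel lists held 4 to 7 such genes each of 38 to 51 tested (10.3% to 15.8%), beside 3.18% of all genes. The share of all genes was itself lower under median-of-ratios scaling (1.34%) and quantile scaling (1.84%), which is the background for the rescaled counts below. Of 38 postsynaptic density genes tested, 6 did (3 under median-of-ratios scaling), among them the scaffolds Dlg2 with 95.6, 154 and 112 TPM (log2 change 0.7, SE 0.11, adjusted p = 0.000338 to P14, log2 change -0.46, SE 0.11, adjusted p = 0.0101 to P21) and Shank3 with 49.9, 76.8 and 61.1 TPM (log2 change 0.61, SE 0.06, adjusted p = 1.67e-05, log2 change -0.33, SE 0.06, adjusted p = 0.0034). Of 39 presynaptic genes, 4 did, including the vesicle protein Sv2a with 106, 152 and 126 TPM (log2 change -0.26, SE 0.05, adjusted p = 0.00284 from P14 to P21). Of 51 voltage-gated channel genes, 7 did (3 under median-of-ratios and 4 under quantile scaling), among them the sodium channel Scn2a with 36.2, 46 and 35.5 TPM (log2 change -0.37, SE 0.1, adjusted p = 0.0169 from P14 to P21) and the potassium channel modifier Kcng1 with 33.9, 44.1 and 23.1 TPM (log2 change -0.9, SE 0.09, adjusted p = 0.000102). Of 48 synaptic adhesion genes, 5 did (3 under median-of-ratios and 3 under quantile scaling), Cadm2 and Lrrtm1 with 73.2, 86.6 and 59.5 TPM (log2 change -0.53, SE 0.06, adjusted p = 0.000154 from P14 to P21) among them. For every one of the genes called in these lists other than Cadm2 and Sv2c, the P14 mean was less than 1.4 times that at P7 or P21, and Sv2c stayed under 5 TPM.

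Activity-regulated and glucocorticoid-responsive lists held 0 to 2 such genes each of 12 to 29 tested (0% to 16.7%), beside 3.18% of all genes. Of 23 immediate-early transcription factors tested, none rose and then fell in limma at adjusted p below 0.05, and none did at unadjusted p below 0.05, while 16 rose to P14 and 2 fell, beside 26.7% and 22.8% of all genes. Their summed level was 569 to 612 TPM at P7, 831 to 871 TPM at P14 and 924 to 1033 TPM at P21. Egr1 had 13.5, 100.3 and 107 TPM and rose to P14 (log2 change 2.81, SE 0.11, adjusted p = 1.47e-07), and Fos had 3.79, 23.7 and 23.9 TPM (log2 change 2.39, SE 0.17, adjusted p = 1.80e-06), without passing the test from P14 to P21 in either case (adjusted p = 0.548 and 0.984). Of 29 activity-induced effectors, 4 (13.8%) rose and fell in limma at unadjusted p below 0.05, beside 5.34% of all genes. Under median-of-ratios and quantile scaling 0 and 1 did, beside 2.47% and 3.37% of all genes. At adjusted p below 0.05, 1 did, the kinase Plk2 with 112, 161 and 142 TPM (log2 change -0.18, SE 0.06, adjusted p = 0.0352 from P14 to P21). The fall of Plk2 was not called under median-of-ratios or quantile scaling. Of 12 MAP kinase feedback genes, 2 did, Spry4 with 2.87, 3.84 and 2.26 TPM (log2 change -0.57, SE 0.08, adjusted p = 0.000668 from P14 to P21) and Etv1 with 14.3, 22.7 and 17.2 TPM (log2 change -0.39, SE 0.12, adjusted p = 0.0339), and the fall of Etv1 was not called under median-of-ratios or quantile scaling. Of 12 glucocorticoid-responsive genes, none rose and fell at adjusted or unadjusted p below 0.05, beside 3.18% and 5.34% of all genes, and 6 rose to P14, beside 26.7%.

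**Figure D5:**
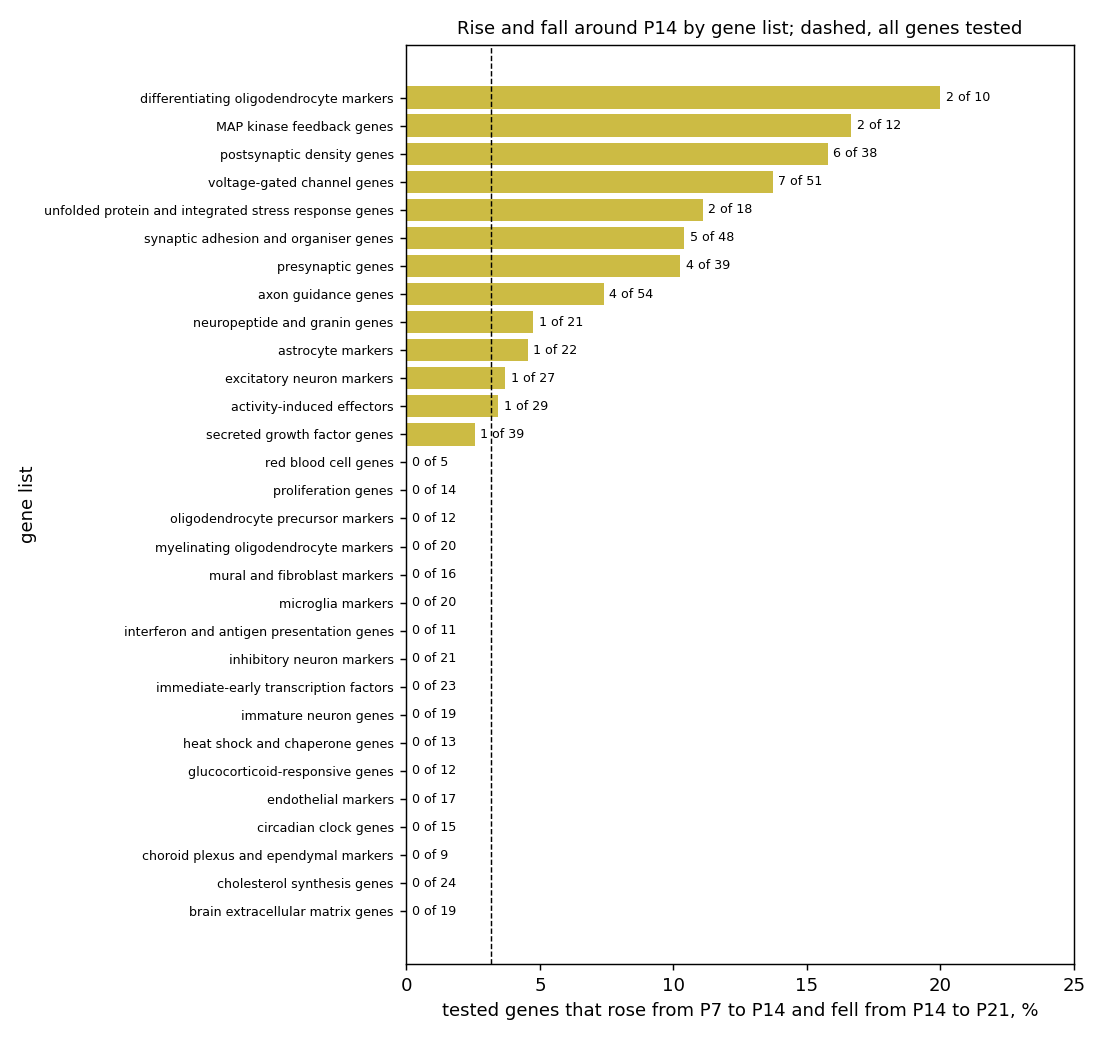
Share of the tested genes of each of 30 lists that rose from P7 to P14 and fell from P14 to P21 in limma on the TPM scale (bars, with counts); the dashed line marks 3.18%, the share over all 19008 genes. Differentiating oligodendrocyte, MAP kinase feedback, postsynaptic and channel lists stand highest, with 2 of 10, 2 of 12, 6 of 38 and 7 of 51, and 17 lists hold none.

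The set itself depends on how the libraries are scaled. Under median-of-ratios scaling 34 genes met the rule, all among the 58, and under quantile scaling 37 did, 36 of them among the 58. Without 1 pull-down library at a time the count ran from 52, without the first P7 library, to 90, without the first P14 library. That P14 library was the lowest of its age in 35 of the 58 genes, beside 41.8% of all genes, and the first P7 library was the lowest of its age in 47 of 58, beside 45.1%. In all, 33 genes met the rule under both other scalings, 40 met it without each of the 9 libraries in turn, and 29 met all of these. Among the 29 were Npnt, Cemip, Ccn3, Ctsk, Sptssb, Nfatc2, Nav3, Oxtr, Htr2c, Adra2a, Dnmt3a, Gpr17, Aldh3b2, Capsl and Vwa3a. Fxyd7, Lypd1, Camk2d, Cadm2, Pdyn, Ccnd2, Dot1l and Hsd11b1 met the rule on the TPM scale and missed it under median-of-ratios scaling, with ratios of 1.3 to 1.4.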

How the data were processed

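The levels are TPM values deposited by the authors as 1 table of 77179 gene IDs and 11 libraries, so depth is unknown and every value is a share of its library. The build mm39 and the tools Salmon 1.10.0, fastp 1.0.1 and DESeq2 1.46.0 are named, without their roles, per the submitters' processing notes. The peaking genes, gene lists and families were chosen with earlier results of these data known; 1 of the 58 genes, and a few related ones, enter the counts but are not reported here. The genes named were the 20 largest ratios, the 10 highest levels, list members and the extremes of the IP comparison, leaving out predicted symbols; the others were named after their values were seen.

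Tests used limma 3.58.1 in R 4.3.3 on log2(TPM + 1), over all 11 libraries, with a mean-variance trend and 7 residual degrees of freedom, for the 19008 genes that reached 1 TPM in 2 or more libraries. Adjusted p-values are Benjamini-Hochberg over those genes, two-sided, and log2 differences of low genes are understated by the added 1 TPM. The code was tested on simulated data. Since the sources used here do not name animals, p-values measure the spread between libraries. Alternatives were other pseudocounts, filters, scalings and models, and leaving out each library.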

Additional observations from a re-analysis of the deposited data

How the results depend on the processing

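The number of peaking genes, 58, followed the rule's limits: it was 104 with a minimum of 2 TPM, 36 with 10 TPM, 338 with a ratio of 1.2 and 8 with a ratio of 2. It was 34 under median-of-ratios and 37 under quantile scaling, and 52 to 90 without 1 library at a time. The dips numbered 21 under median-of-ratios scaling, against 11. The 605 genes that rose and fell were 396 with no filter on low values, 248 under median-of-ratios and 343 under quantile scaling, and 344 to 621 without 1 library. The 58 genes held 21 higher and 18 lower in IP under median-of-ratios scaling and 22 and 18 under quantile scaling, beside 13 and 30, and 13 to 14 higher and 25 to 31 lower without 1 library. Shares of all genes called higher or lower in IP under those scalings were not counted. On the TPM scale the median log2 change over all genes tested was 0.0339 from P7 to P14 and -0.0753 from P14 to P21. It was -0.00445 and 0.0135 under median-of-ratios scaling, and 0.00357 and -0.0133 under quantile scaling. The cause of the shifts in these counts was not tested.

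Among the genes followed, some log2 differences between P7 IP and P7 input turned positive. Under median-of-ratios scaling they were 0.42 for Adra2a, 0.164 for Ccn3, 0.0927 for Nfatc2, 0.197 for Spata2l, 0.00864 for Capsl, 0.0195 for Arhgap22, 0.0671 for Gpcpd1 and 0.41 for Ust. Under quantile scaling they were 0.0552 for Oxtr, 0.45 for Adra2a, 0.274 for Nfatc2, 0.113 for Smim3, 0.19 for Capsl, 0.13 for Gpr6, 0.19 for Arhgap22, 0.12 for Hsd11b1, 0.0766 for Ccdc13 and 0.45 for Ust. Of 46 genes followed under 21 alternatives, 21 changed their call or sign under at least 1.

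Libraries of different ages share replicate numbers, but the labels do not say that a number marks a shared litter or day. Deviations of same-numbered libraries correlated from -0.105 to 0.177, and those of libraries with different numbers from -0.167 to 0.167. Among pull-down libraries alone, same-numbered pairs ran from 0.012 to 0.177 and the others from -0.123 to 0.102. With the number as a replicate block, 706 genes rose and fell, and 13 and 30 of the 58 genes were higher and lower in IP, with Ccn3 (-0.375) and Nfatc2 (-0.379) added and Gm17344 and Capsl lost. Depth is unknown, so low genes carry an unstated counting error.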
